A study of Mus musculus with 9 samples.

Results

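Hoxa11 binding sites of the E11.5 mouse limb bud were compared with Hoxa13 peaks of the E11.0 autopod, the hand and foot region, to ask which Hoxa11 sites lay where Hoxa13 was already found 0.5 days earlier. A Hoxa11 site is an interval made by merging peaks of Hoxa11 replicates 1 and 2 that shared at least 1 bp. There were 1023 such sites, made from lists of 2953 and 1647 peaks, and the Hoxa13 E11.0 list held 50890 peaks. Of the 1023 sites, 313 shared at least 1 bp with a Hoxa13 E11.0 peak and 710 did not. All embryos were wild type (WT) ICR mice, an outbred stock. Chromatin immunoprecipitation and sequencing (ChIP-seq) used home-made antibodies, 8 µg against Hoxa11 on whole limb buds from 1 litter and 10 µg against Hoxa13 on 11 pairs of E11.0 autopods. By the labels Hoxa11 replicate 2 had its own input DNA, and replicate 1 had an input shared with Hoxa13 E11.5. Whether the Hoxa11 replicates stem from different litters is not stated in the labels, and their spread may be technical only. Hoxa13 E11.0 was a single library with its own input DNA, and no input file was analysed here. Later Hoxa13 lists of the limb bud, 1 library each at E11.5 (10 µg, 1 litter) and E12.5, are set beside it. E12.5 was prepared by another protocol, for which no antibody amount, litter number or fixation is recorded here.

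Hoxa11 and Hoxa13 are homeodomain transcription factors of the posterior Hox groups. In the developing limb Hoxa11 is known for its role in the forearm and lower leg, the zeugopod, and Hoxa13 for its role in the hand and foot. Their expression domains separate along the limb as it grows out, with Hoxa13 distal and Hoxa11 proximal to it, and posterior Hox proteins recognise similar AT-rich DNA. Stage and tissue change together between the autopod at E11.0 and the whole limb bud at E11.5, and their effects cannot be told apart. A shared interval means that both lists have a peak there, and does not show that both proteins were in the same cells. Peak lists hold no expression values, so the dissected tissues could not be checked against marker genes. All positions are 1-based in the mouse build mm9, and no mm9 annotation was in hand, so peaks were not assigned to genes.

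A minority of Hoxa11 sites met Hoxa13 in the early autopod. The 313 sites are 30.6% of 1023 (exact Clopper-Pearson 95% interval 27.8 to 33.5). The full list of replicate 2 gave nearly the same share, 503 of 1647 peaks or 30.5% (28.3 to 32.8), while replicate 1 gave 706 of 2953 or 23.9% (22.4 to 25.5). The replicates thus differed by more than counting error over peaks. Peaks seen in replicate 1 alone met Hoxa13 at 20.3% (386 of 1897), and peaks seen in replicate 2 alone at 30.9% (180 of 583). As a background within the same factor, 20.5% of all 143460 Hoxa13 E11.5 peaks and 35.6% of all 44699 Hoxa13 E12.5 peaks met the E11.0 list. The share of Hoxa11 sites therefore lay between those of the later Hoxa13 lists. The intervals are unlike, with median widths of 438 bp for merged Hoxa11 sites, 286 bp for E11.5 peaks and 154 bp for E12.5 peaks. Wider intervals are met more easily and E12.5 was prepared by another protocol, so this order is not a like-for-like comparison. Intervals cover counting error over peaks only, since peaks are not replicates, and read depth is unknown for every library. With a single E11.0 library no test between conditions was possible.

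The overlap rule itself brings centres near each other, so the geometry of the 313 pairs is a description. The largest overlap of a site had a median of 291 bp and ranged from 17 to 2250 bp. The centres of the Hoxa11 site and of that Hoxa13 peak were a median of 84.5 bp apart, and 178 of 313 pairs (56.9%) were within 100 bp. In 171 of the pairs the Hoxa13 peak lay wholly inside the Hoxa11 site, and in 38 the Hoxa11 site lay wholly inside the Hoxa13 peak. The summit of replicate 2, the base of highest enrichment by the authors' caller, fell inside a Hoxa13 E11.0 peak at 246 of the 313 sites (78.6%). Most sites met 1 Hoxa13 peak (280), and 33 met from 2 to 5. The central 200 bp of the site shared at least 1 bp with Hoxa13 at 277 of the 313 sites. In narrow sites those 200 bp are much of the site, so this says little there. Among sites of 607 to 5606 bp, 94 of 128 shared sites kept the overlap.

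The overlap rule cut through few borderline cases. The smallest overlaps were 17 bp on chromosome 12 (74622635 to 74623416), 53 bp on chromosome 14 (81372329 to 81372904) and 56 bp on chromosome X (121047054 to 121050115). Overlaps of 72 bp on chromosome 1 (152711635 to 152711976) and 102 bp on chromosome 12 (19308755 to 19309550) came next. Just outside the rule, the site on chromosome 3 from 6887332 to 6887771 ended 2 bp before the first base of a Hoxa13 peak. The next nearest were 45 bp from one on chromosome X (92139677 to 92140039) and 53 bp on chromosome 17 (74251592 to 74251906). They were followed by 142 bp on chromosome X (122486376 to 122487808) and 180 bp on chromosome 18 (49353971 to 49354477). Only 1 site shared fewer than 50 bp, and only 3 of the sites without overlap lay within 100 bp of a Hoxa13 peak.

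Most sites without overlap had no Hoxa13 E11.0 peak close by. Their median distance to the nearest one was 21754.5 bp (quartiles 7143 and 52950 bp). A peak within 1000 bp was found for 56 of the 710 (7.89%), within 10000 bp for 230 (32.4%) and within 100000 bp for 611 (86.1%). Absence at these sites was therefore mostly absence from the whole neighbourhood of 1 kb.

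The strongest Hoxa11 sites fell on both sides. The authors' values for replicate 2, a fold enrichment over the caller's background and a −log10 q-value, were used to rank sites. Among sites with Hoxa13 E11.0, the highest was on chromosome 9 from 29126172 to 29126784 (16.6-fold, −log10 q 163.5), where the Hoxa13 peak of 217 bp lay inside the site and held the Hoxa11 summit. On chromosome 12 from 9265156 to 9266052 (17.6-fold) a Hoxa13 peak of 347 bp lay inside the site, and the Hoxa11 summit was outside that peak. On chromosome 3 from 6381507 to 6382977 (17.7-fold) a 205 bp Hoxa13 peak held the summit of a site of 1471 bp. The site on chromosome 15 from 102844833 to 102845401 (11.3-fold) shared 381 bp. Shared lengths of 321 and 316 bp were found at 171458966 to 171459773 on chromosome 2 (12.3-fold) and at 100254837 to 100255653 on chromosome 10 (11.6-fold). On chromosome 5 the site at 132543592 to 132544570 (9.37-fold) shared 603 bp. All of these strong sites but those on chromosomes 12 and 2 had the Hoxa11 summit under the Hoxa13 peak. The remaining 3 of the 10 highest lay on sequence not placed on a chromosome, on Un_random from 3643433 to 3648129 (6.59-fold) and on 4_random from 94139 to 98230 (8.33-fold) and from 136633 to 137512 (11.4-fold).

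Among sites without Hoxa13 E11.0 the highest was on chromosome 10 from 98633049 to 98634126 (15.8-fold, −log10 q 105.8), with the nearest Hoxa13 peak 99632 bp away. On chromosome 2, 2 strong sites had a Hoxa13 peak close to them but not on them. The site from 74976197 to 74976895 (11.6-fold) was 2235 bp from one, and the site from 74218811 to 74219338 (9.18-fold) was 2104 bp from one. On chromosome 7 from 57260837 to 57261266 (13.0-fold) the distance was 3714 bp. At the other 6 of the 10 the distance was 17385 to 50025 bp. They included 80850494 to 80851753 on chromosome 3 (15.3-fold), 23834737 to 23835401 on chromosome 14 (9.71-fold) and 147378811 to 147379703 on chromosome 5 (12.6-fold). The rest were 62468496 to 62469145 on chromosome 16 (12.6-fold), 59145897 to 59146964 on chromosome 4 (8.08-fold) and 87262019 to 87262531 on chromosome 11 (6.77-fold). Of these 10 sites, all but that on chromosome 10 met Hoxa13 at E11.5, as did 72.5% of all sites without Hoxa13 E11.0.

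Over chromosomes 1 to 19 and X, the share of Hoxa11 sites with early Hoxa13 ran from 11.8% on chromosome 17 (2 of 17, 1.46 to 36.4) to 60.5% on chromosome X (52 of 86). Unplaced sequence of 4_random had 63.6% (7 of 11). Among the autosomes the highest shares were 47.8% on chromosome 12 (32 of 67, 35.4 to 60.3), 45.2% on chromosome 8 (19 of 42, 29.8 to 61.3) and 41.7% on chromosome 19 (5 of 12, 15.2 to 72.3). Chromosome 14 had 37.3% (19 of 51), chromosome 7 had 31.0% (9 of 29) and chromosome 2 had 30.8% (24 of 78). The 2 autosomes with most sites had shares below that of all autosomes: chromosome 1 had 20.7% (18 of 87) and chromosome 3 had 20.9% (18 of 86). Low shares were found on chromosomes 4 (14.6%, 6 of 41), 10 (15.2%, 7 of 46) and 11 (18.5%, 10 of 54). Most autosomal intervals overlap each other, as the plot of shares by chromosome shows. The order of the autosomes is therefore loose, at its ends too.

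**Figure D1:**
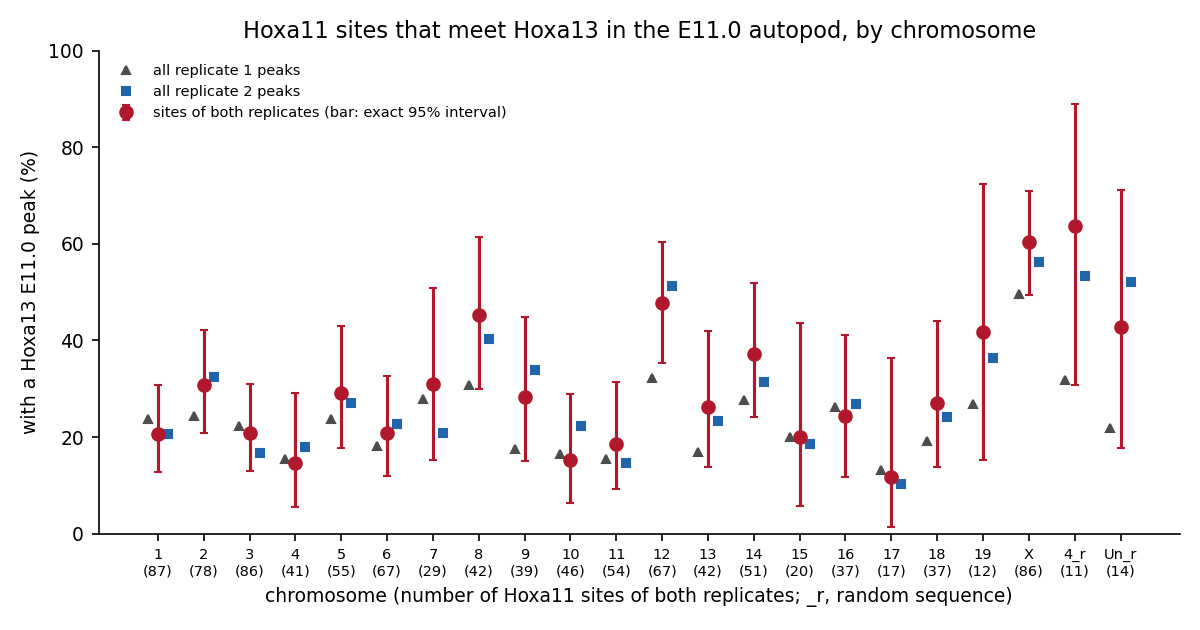
Share of Hoxa11 sites with a Hoxa13 E11.0 peak (percent, vertical axis) on each sequence with at least 10 sites (horizontal axis, number of sites in brackets). Red points with exact 95% intervals are sites of both replicates, triangles and squares are all peaks of replicates 1 and 2, and chromosome X stands at 60.5%, against 26.9% over the autosomes.

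Chromosome X held 8.41% of the Hoxa11 sites but 16.6% of those with Hoxa13 E11.0. Its share of 60.5% (49.3 to 70.8) stood against 26.9% (24.04 to 29.9) for 244 of 907 autosomal sites, a difference of 33.6 percentage points (Newcombe 95% interval 22.6 to 43.6). Both replicates showed it: the difference was 27.5 points in replicate 1 (49.7% against 22.2%) and 29.3 in replicate 2 (56.2% against 26.9%). Under stricter overlap its interval took in 0, at 7.38 points (−0.691 to 17.6) for 50% reciprocal overlap and 6.89 points (−1.39 to 17.2) for 50% of the site. The same sites showed no such excess for the later Hoxa13 of E11.5, which met 73.3% of X sites and 79.9% of autosomal ones, while E12.5 met 79.1% and 63.1%. The X value came from few places, since 81 of its 86 sites lay in 4 windows of 1 Mb. Outside them 1 of 5 sites met Hoxa13 E11.0, and X minus autosomes was −6.90 points (−23.5 to 35.6). Repeated sequence was not screened in any list, and its part in the result was not tested. Single-replicate peaks outside the 4 windows gave 5 of 18 in replicate 1 (27.8%, 9.69 to 53.5) and 11 of 22 in replicate 2 (50%, 28.2 to 71.8), both above the autosomal share of the same list. With so few sites, the direction on the rest of chromosome X differed between the merged sites and the single lists.

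The densest of these places was a cluster of 50.8 kb on chromosome X, from 92123222 to 92174067. It held 19 Hoxa11 sites, of which 18 met Hoxa13 E11.0 (94.7%, 73.97 to 99.9). Replicate 1 had 33 peaks in this span and replicate 2 had 30. Hoxa13 at E11.0 had 65 peaks there, covering 45.1% of its bases, while E11.5 had 25 (14.4%) and E12.5 had 28 (8.84%). The Hoxa11 peaks of replicates 1 and 2 covered 20.6% and 21.5%, so Hoxa13 E11.0 had the highest coverage of the 5 lists in this span. With E11.0 peaks this dense, a site is easily met wherever it lies in the span. The share expected from density alone was not computed, so 18 of 19 does not show that both proteins chose the same places. The Hoxa11 peaks themselves were weak, with fold enrichments of 2.05 to 3.44 and a median of 2.71, against 4.21 over all 1023 sites. The sites were 301 to 1069 bp wide. The plot of the cluster shows E11.0 peaks along the whole span.

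**Figure D2:**
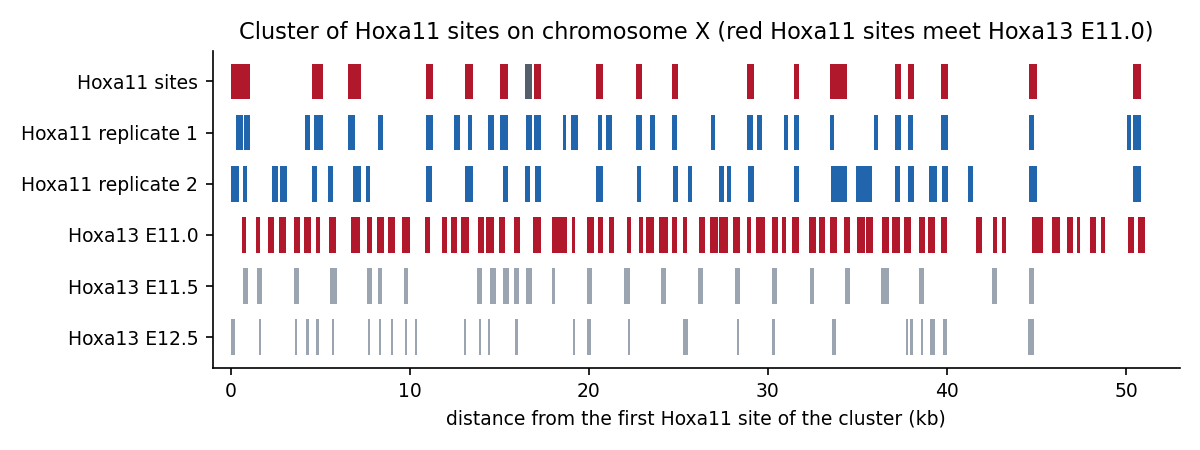
Peaks of the 5 lists and merged Hoxa11 sites in the cluster on chromosome X, by distance from its first site (kb, horizontal axis), each row 1 list. Of 19 Hoxa11 sites, 18 are red because they meet Hoxa13 E11.0, whose row has 65 peaks, against 25 at E11.5 and 28 at E12.5.

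The other 3 windows of chromosome X, starting at 120000001, 121000001 and 122000001, showed another pattern. Of their 62 sites, 33 met Hoxa13 E11.0 (53.2%, 40.1 to 66.0), with 12 of 23, 14 of 25 and 7 of 14 in turn. Hoxa13 E11.0 peaks covered 4.41% to 5.11% of the bases between the first and last site of each window. The windows held 117, 132 and 100 E11.0 peaks, against a median of 17 per 1 Mb window with any on chromosomes 1 to 19. The part of this density in the share of sites met was not tested. Sites of these windows were broad, with medians of 486, 741 and 1456.5 bp. Nearly all of them met Hoxa13 later as well, 55 at E11.5 and 59 at E12.5. Here the shares at the later stages exceeded the E11.0 share, which was the reverse of the cluster at 92 Mb, where 18 sites met E11.0, 5 met E11.5 and 7 met E12.5.

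On chromosome 12, 14 of the 32 shared sites lay in a run of 7 neighbouring windows from 18000001 to 25000000, chosen after its values were seen. All 14 Hoxa11 sites in it met Hoxa13 E11.0, against 18 of 53 (34.0%, 21.5 to 48.3) on the rest of the chromosome and 212 of 840 (25.2%) on the other autosomes. In the single lists 16 of 17 replicate 1 peaks and 37 of 40 replicate 2 peaks of the run met it. The run held 256 Hoxa13 E11.0 peaks of up to 2430 bp, which covered 1.43% of its bases. Its windows held 24 to 48 of them each, against a median of 17 per 1 Mb window with any on chromosomes 1 to 19. The part of this density in the 14 of 14 was not tested. Hoxa11 sites of the run were 389 to 879 bp wide and 2.32- to 7.17-fold enriched, with a median of 4.18, near that of all sites. All 14 also met Hoxa13 E11.5 and 12 met E12.5. Without windows dense in peaks, chromosome 12 fell to 9 of 31 sites (29.0%), a difference from the other autosomes of 4.51 points (−8.94 to 22.4).

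On chromosome 8 the 19 shared sites lay in 16 of the 30 windows with a site, at most 3 in one. The same count on chromosome 12 was 20 of 38 windows, also with at most 3 in one, so the number of windows does not set the chromosomes apart. Against the other autosomes (26.0%) it was higher by 19.2 points (4.89 to 34.3), and without dense windows by 22.7 points (5.44 to 40.8). The window from 94000001 to 95000000 had 3 shared sites of 4, at 94154167 to 94154542 (4.31-fold), 94203497 to 94204026 (6.19-fold) and 94532306 to 94532738 (5.26-fold). In each of them the Hoxa11 summit lay inside the Hoxa13 peak. The strongest shared site of the chromosome was from 59188065 to 59188886 (9.67-fold). This chromosome was picked out of 19 after its share was known, and the interval takes no account of that.

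Sites were scattered over 630 windows of 1 Mb, of which 449 held 1 site. At least 1 site with Hoxa13 E11.0 was found in 216 windows. Among the 63 windows with 3 or more sites, 21 had no site with Hoxa13 E11.0, 4 had Hoxa13 on every site and 38 were mixed. The 10 windows with most shared sites were the 4 on chromosome X (7 to 18 each), 4_random (7 of 11) and Un_random from 3000001 (6 of 7). They were followed by chromosome 6 from 52000001 (4 of 7), and by chromosomes 14 from 52000001 (3 of 8), 9 from 87000001 (3 of 5) and 12 from 9000001 (3 of 4). With the last 3 tied chromosome 8 from 94000001, chromosome 12 from 18000001 and 24000001, chromosome 2 from 3000001 and chromosome 5 from 12000001. The last 4 of these were windows in which each of 3 sites met Hoxa13 E11.0.

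Clusters of Hoxa11 sites also occurred in which no site, or few, met Hoxa13 E11.0. E11.0 peaks could lie elsewhere in such windows, with 3 on chromosome 6 from 114000001 and 15 on chromosome 11 from 87000001. On chromosome 6 from 114000001 to 115000000 none of 8 sites met Hoxa13 E11.0, and only 1 met E11.5 and none E12.5. These sites were narrow, 226 to 366 bp, and weak, with a median of 2.82-fold, and 31 replicate 1 peaks lay within their span of 305.8 kb. On chromosome 11 from 87000001 to 88000000 none of 8 sites met E11.0, while 6 met E11.5 and 5 met E12.5. Their median enrichment was 5.27-fold. Of all 710 sites without E11.0, 72.5% met E11.5 and 53.2% met E12.5, so nothing particular is read from these later counts. On chromosome 12 from 55000001 to 56000000, 2 of 10 sites met E11.0, none met E11.5 and 3 met E12.5. None of 7 sites met E11.0 on chromosome 3 from 96000001 or on Un_random from 2000001. Altogether 10 windows had 4 or more sites and no overlap with E11.0.

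Neighbouring sites were compared pair by pair. Of 139 pairs of adjacent sites less than 10000 bp apart, 44 had Hoxa13 E11.0 on both, 50 on neither and 45 on one. Outside chromosome X and unplaced sequence there were 58 such pairs, with 8 on both, 36 on neither and 14 on one.

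The Hox gene clusters, whose products include the proteins mapped here, were looked at one by one. The 1 Mb windows that hold the clusters were placed from general knowledge of mm9, and sites were not placed inside or outside a gene. Of 16 Hoxa11 sites in the 4 windows, 6 met Hoxa13 E11.0, beside 30.6% of all sites. In the HoxA window on chromosome 6, 4 of 7 sites met it. Those at 52150915 to 52151233 (3.83-fold), 52166645 to 52166991 (3.50-fold) and 52176071 to 52176864 (5.80-fold) lay near each other and shared 234, 268 and 618 bp with Hoxa13. At all of these the Hoxa11 summit lay inside the Hoxa13 E11.0 peak, and all met both later Hoxa13 lists. The fourth, at 52551529 to 52552109 (3.27-fold), also met Hoxa13 at all stages. A neighbour at 52180923 to 52181404 (2.70-fold) lay 4085 bp from the nearest Hoxa13 E11.0 peak and met none at any stage. Nor did the site at 52752429 to 52752713 (2.95-fold), and that at 52788265 to 52788712 (4.52-fold) met E11.5 only.

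In the HoxD window on chromosome 2 none of 4 sites met Hoxa13 E11.0, although the window held 34 E11.0 peaks, against 20 in the HoxA window. All 4 met Hoxa13 E11.5 and 3 met E12.5. The site at 74535107 to 74535634 (6.87-fold) and its neighbour at 74536748 to 74537288 (3.99-fold) were 6267 and 7908 bp from the nearest E11.0 peak. Beside them stood the strong sites at 74218811 to 74219338 and 74976197 to 74976895, already described as 2104 and 2235 bp away. The windows on either side, looked at after these values were seen, added 7 sites and again no overlap with E11.0. That makes 0 of 11 sites from 73000001 to 76000000 with E11.0, in a stretch with 85 E11.0 peaks and 342 E11.5 peaks. Hoxa13 E11.5 met 9 of the 11 and E12.5 met 6, beside 79.2% and 64.7% of all 1023 sites, so nothing particular to these sites is read from the later stages. Over the HoxA window and its neighbours 4 of 12 sites met E11.0. The numbers are small, and the difference between both clusters was not tested.

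**Figure D3:**
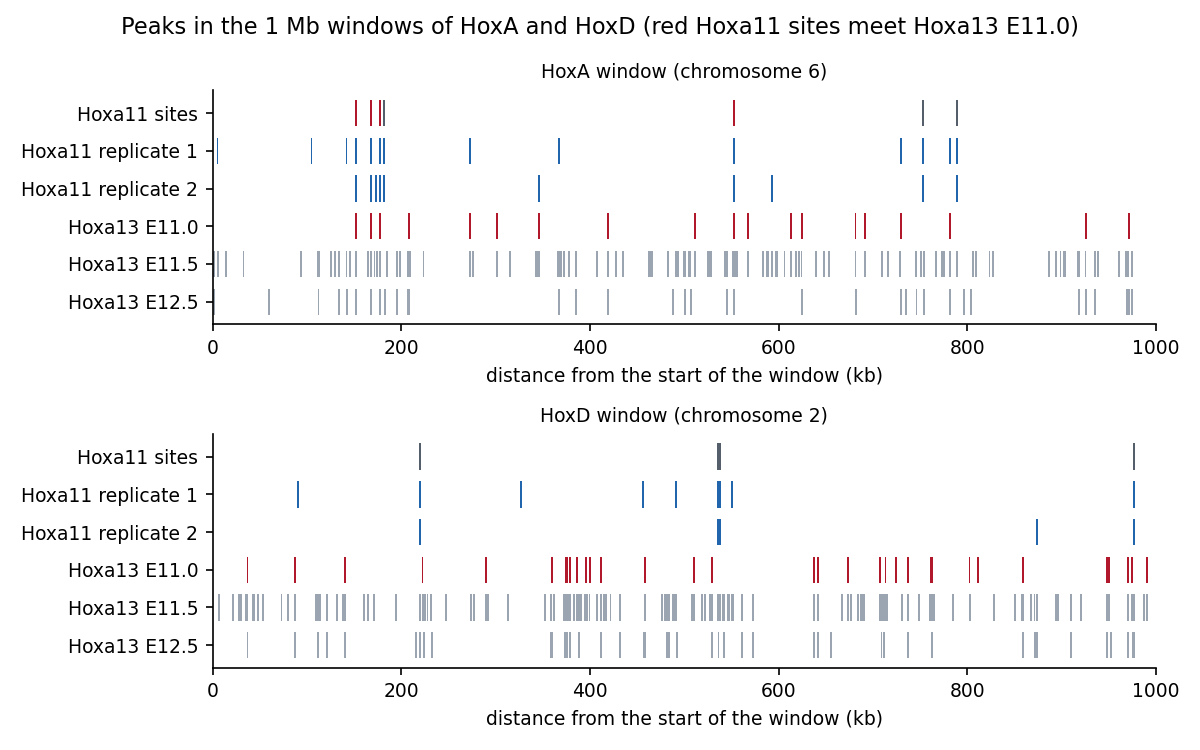
Peaks in the 1 Mb windows of HoxA (top) and HoxD (bottom), by distance from the window's start (kb, horizontal axis), each row 1 list, with marks drawn at least 2 kb wide to be visible. In HoxA 4 of 7 Hoxa11 sites are red because they meet Hoxa13 E11.0, in HoxD none of 4, though E11.0 peaks lie elsewhere in that window.

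The HoxC and HoxB windows each had 1 shared site. On chromosome 15 it was the strong site from 102844833 to 102845401 named above, while those at 102828397 to 102828784 (4.61-fold) and 102865577 to 102865933 (3.50-fold) met no E11.0 peak and met E11.5. On chromosome 11 the site at 96142916 to 96143478 (3.73-fold) lay whole inside a Hoxa13 E11.0 peak of 651 bp. The site at 96180532 to 96180894 (4.74-fold) was 35775 bp from the nearest one. In both windows the site met by E11.0 was also met by E12.5, and the sites not met by E11.0 were not.

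Hoxa11 sites with early Hoxa13 were wider than those without under the 1 bp rule, and under stricter rules the sign turned, with intervals that took in 0. Their median width was 511 bp (order-statistic 95% interval 472 to 567), against 405 bp (388 to 423). The ranges were 253 to 5606 bp and 207 to 3841 bp. Sites of 1000 bp or wider made up 14.7% of the first group (46 of 313) and 4.51% of the second (32 of 710). The difference held within each replicate, where medians were 320.5 against 274 bp in replicate 1 and 336 against 271 bp in replicate 2. On the autosomes alone the medians were 482 and 406 bp. The difference in medians, 106 bp, was −25 bp (−73 to 24) when 50% reciprocal overlap was required and −20.5 bp (−71 to 25) when 50% of the Hoxa11 site was. The ranges in brackets subtract opposite ends of both median intervals, and are wider than 95% intervals. Both rules also work against wide sites by construction, so the change of sign is partly set by the rule. Merging joins peaks of both replicates, so merged sites are wider than their peaks.

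By width quartile the share with Hoxa13 E11.0 rose from 14.9% (39 of 261, 10.8 to 19.9) at 207 to 331 bp to 50.4% (128 of 254, 44.1 to 56.7) at 607 to 5606 bp. The quartiles between had 27.4% (69 of 252) and 30.1% (77 of 256). A wider interval is met more easily, so each site was also reduced to its central 200 bp. The narrow quartiles kept their values, 14.9% and 27.4%, and the widest fell to 37.0% (94 of 254, 31.1 to 43.3). The widest minus the narrowest quartile was then 22.1 points (14.6 to 29.3), against 35.5 points (27.7 to 42.6) for whole sites. Under rules that require 50% of the Hoxa11 site, or of both intervals, the gap was 1.18 and 1.52 points. The size of this gap therefore depends on the overlap rule. Rules that require 50% of the Hoxa11 site work against wide sites by construction, since E11.0 peaks had a median width of 245 bp. The small gap under them is thus partly set by the rule. The later stages rose with width too, from 63.2% to 88.6% at E11.5 and from 44.8% to 82.3% at E12.5.

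**Figure D4:**
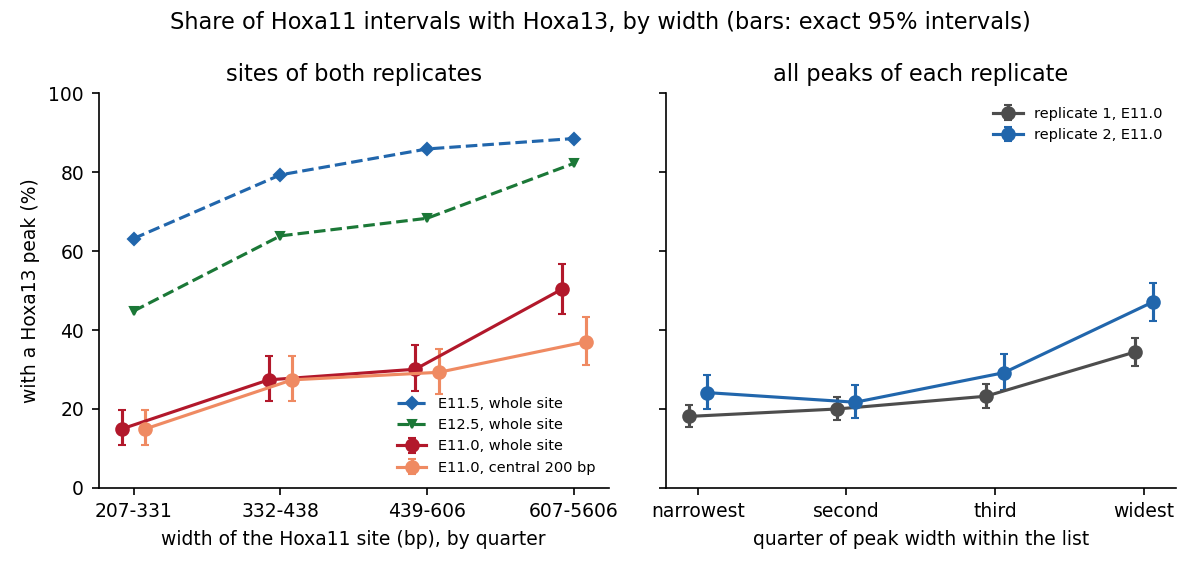
Share of Hoxa11 intervals with a Hoxa13 peak (percent, vertical axis) by width quartile (horizontal axis), for sites of both replicates (left) and for all peaks of each replicate (right), with exact 95% intervals for E11.0. The share at E11.0 goes from 14.9% to 50.4% for whole sites and to 37.0% for the central 200 bp, and replicates 1 and 2 reach 34.4% and 47.1%.

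In the single lists the widest quartile also had the highest share. From narrow to wide it was 18.1%, 20%, 23.2% and 34.4% in replicate 1, and 24.2%, 21.7%, 29.2% and 47.1% in replicate 2, where the second quartile was below the first. The widest sites on either side were at places with broad peaks. With Hoxa13 E11.0 they were on chromosome 12 from 8636964 to 8642569, the Un_random and the 4_random intervals from 94139 named above, and chromosome X from 120609899 to 120613918 and from 121052779 to 121056773. The site on chromosome X from 120609899 met 5 separate E11.0 peaks. Without it they were on chromosome 1 from 164148351 to 164152191 (3841 bp) and from 7379366 to 7382180, on 4_random from 138423 to 141138, and on chromosome 14 from 52008275 to 52010740 and from 52118914 to 52120888.

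Under the 1 bp rule, which favours wide sites, peak strength separated the classes less than width did. The median fold enrichment in replicate 2 was 4.47 (4.29 to 4.68) for sites with Hoxa13 E11.0 and 4.11 (3.995 to 4.21) for sites without. The difference of 0.356 was 0.0324 (−0.150 to 0.236) over all replicate 2 peaks, with replicate 1 left out, and 0.00068 when 50% of the site was required. The median −log10 q was 10.1 and 8.48. By quartile of −log10 q the share with Hoxa13 E11.0 was 26.2%, 26.2%, 30.6% and 39.5% from low to high. When sites were split at the median of both measures, narrower sites met Hoxa13 E11.0 at 20.6% (64 of 311) with low and 21.8% (44 of 202) with high −log10 q. Wider sites met it at 34.8% (70 of 201) and 43.7% (135 of 309). With the central 200 bp, wider sites had 30.8% (24.5 to 37.7) and 34.6%, and narrower sites of low −log10 q had 20.6% (16.2 to 25.5). Wider sites thus had the higher share in both strength classes, with intervals that overlap at low strength for the central 200 bp. The classes were not matched in full, since the wider sites had a median width of 545 bp at low and 665 bp at high −log10 q. The authors' fold and −log10 q describe replicate 2 only.

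**Figure D5:**
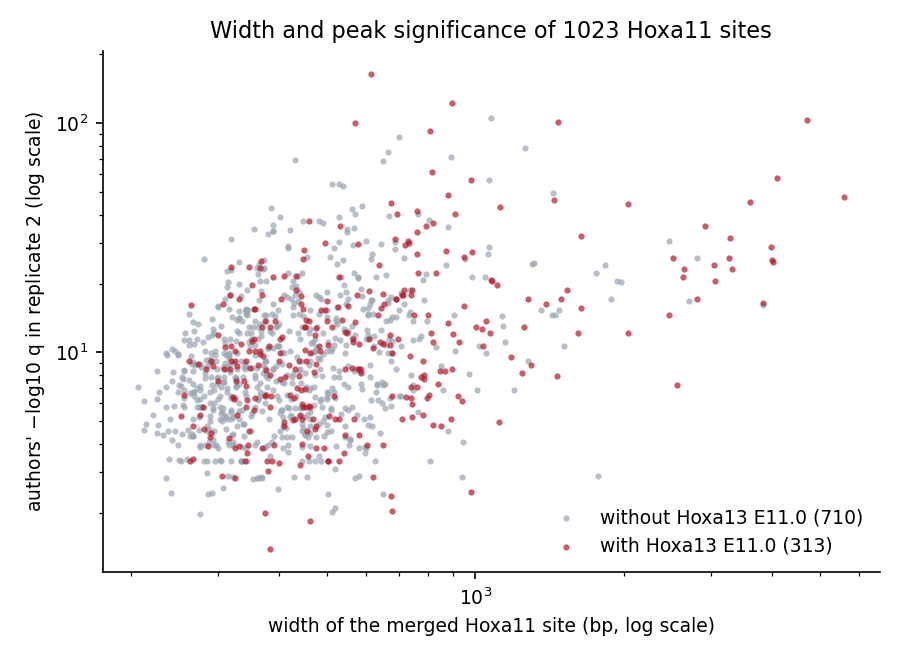
Width of each merged Hoxa11 site (bp, log scale, horizontal axis) against the authors' −log10 q in replicate 2 (log scale, vertical axis), 1 point per site. The 313 sites with Hoxa13 E11.0 (red) start at 253 bp, against 207 bp for the 710 without (grey), and spread over most of their range. Of the red sites 46 are 1000 bp or wider, against 32 of the others.

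Seen from the Hoxa13 side, the shared sites were a very small part of the early autopod list. Of 50890 E11.0 peaks, 356 met a Hoxa11 site (0.700%). Their median width was 323 bp (306 to 350), against 244 bp for the other 50534. In the widest quartile of E11.0 peaks, at 310 bp or more, 195 of 12616 (1.55%) met a Hoxa11 site, against 41 of 12955 (0.316%) in the narrowest, at 187 to 203 bp. The median and the share in the widest quartile were thus higher, while 41, 59 and 61 of the 356 lay in the other quartiles. A wider E11.0 peak also meets a site more easily.

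Sites with Hoxa13 in the early autopod nearly always had it later. Hoxa13 E11.5 met 810 of all 1023 sites (79.2%), which divide into 295 of the 313 (94.2%) and 515 of the 710 without early Hoxa13 (72.5%). Hoxa13 E12.5 met 662 of all sites (64.7%), namely 284 of the 313 (90.7%) and 378 of the 710 (53.2%). Sites with E11.0 were wider, with medians of 511 against 405 bp, and later overlap rose with width. The part of width in these gaps was not tested. By the labels, Hoxa13 E11.5 and Hoxa11 replicate 1 had the same input DNA. At least 1 later stage was met by 302 of the 313 (96.5%, 93.8 to 98.2), and 11 met neither. Of the 710 sites without early Hoxa13, 165 met neither later stage, so later overlap was common there too. Of the 11 sites met at E11.0 only, 10 lay between 92129790 and 92174067 in the chromosome X cluster, where E11.0 peaks covered 45.1% of bases. The other was on chromosome 12 from 55782342 to 55783143 (4.10-fold), and a neighbour from 55783658 to 55784348 (4.39-fold) met E11.0 and E12.5 but not E11.5. On the autosomes 243 of 244 sites with Hoxa13 E11.0 met a later stage, and the matching count for autosomal sites without it is not given here.

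A further 18 sites met E11.0 and E11.5 but not E12.5, and 15 of these were autosomal. The most enriched were 24585880 to 24586643 on chromosome 11 (6.55-fold) and 70641147 to 70641642 on chromosome 10 (6.03-fold). Of the 7 sites met at E11.0 and E12.5 but not E11.5, 4 were in the chromosome X cluster and 1 on mitochondrial DNA. The other autosomal one besides chromosome 12 was on chromosome 6 from 37595402 to 37595793 (5.61-fold). The 277 sites met at all stages were the widest class, with a median of 545 bp, and had a median enrichment of 4.68-fold. The 165 sites met at no stage had 331 bp and 3.60-fold. E12.5 was prepared by another protocol, so differences from it cannot be told apart from that.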

How the data were processed

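The 5 ChIP libraries of 9 each had a peak list, and the 4 input libraries were not analysed here. MACS2 2.1.0, Bowtie2 2.2.2, CASAVA 1.4 and mm9 are named in the submitters' processing notes, with no role. Thresholds, duplicate handling and use of input are not given in the sources used here. The authors deposited chromosome, start and end for each peak. The deposited list of Hoxa11 replicate 2 also gives a score, a fold (ratio) of enrichment, a −log10 p-value and a −log10 q-value for each peak. That score equals 10 times the −log10 q, cut to a whole number. Other units were not given, and depth is unknown.

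Peaks were intersected in Python 3.11.15 with pandas 2.3.3 and scipy 1.17.1, with a minimum overlap of 1 bp. The overlap code was tested on simulated lists. A site took the values of its replicate 2 peak with the highest −log10 q. Windows of 1 Mb were assigned by site start. Shares have exact Clopper-Pearson intervals and differences of shares Newcombe intervals, at 95%. Medians have order-statistic 95% intervals. For a difference of medians, of width or of fold, opposite ends of both median intervals were subtracted. That range is wider than a 95% interval of the difference. Dense windows hold more peaks of a list than its upper quartile plus 3 interquartile ranges. Sites named are the 10 of highest −log10 q with and without Hoxa13 E11.0, the 5 widest of each, the 5 nearest the overlap rule on either side, the 10 richest windows, and all sites of the 4 Hox windows. Sites met at E11.0 only, chromosome 8 sites and windows without overlap were named after their values were seen. Members and lists were chosen with earlier results of these data known. The gene and promoter tables belong to GRCm38, another build, so no gene or sequence is given for a site.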

Additional observations from a re-analysis of the deposited data

How the results depend on the processing

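Across 14 alternatives, 43 of 81 recomputed values stayed within the interval of the reported value, 33 moved outside it and 5 changed sign. The share of sites with Hoxa13 E11.0, 30.6%, was 16.6% under 50% reciprocal overlap, 18.2% when 50% of the Hoxa11 site was required, 27.1% for the central 200 bp, 24.05% for the summit of replicate 2 and 22.6% with the wider 50% of E11.0 peaks. It was 25.1% for the union of replicates, 35.03% for sites of high −log10 q, 26.9% on chromosomes 1 to 19, 24.7% without unplaced sequence and the 131 windows dense in E11.0 or Hoxa11 peaks, and 26.7% without unplaced sequence and the 20 dense in E11.0 peaks. Leaving out a replicate gave 23.9% to 30.5%.

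Chromosome X minus autosomes, 33.6 points, was 7.38 under reciprocal overlap, 6.89 with 50% of the site, 20.5 for the central 200 bp and 16.3 for the summit. It turned to −4.75 without all dense windows, −6.66 without those of E11.0 and −6.90 without the 4 X windows, where 5 X sites remained. Leaving out a replicate gave 27.5 to 29.3.

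The widest minus the narrowest width quartile, 35.5 points, was 1.52, 1.18, 22.1 and 18.9 under the same 4 overlap rules. It was 16.0 for the union, 26.1 on chromosomes 1 to 19, 21.9 without all dense windows, 26.8 without those of E11.0, and 16.3 to 22.9 with a replicate left out. The width difference of 106 bp was −25 bp under reciprocal overlap and −20.5 bp with 50% of the site, and 46.5 to 65 bp with a replicate left out. The difference in fold, 0.356, was 0.00068 with 50% of the site and 0.0324 in replicate 2 alone. It could not be computed in replicate 1 or the union, where not every interval has a fold. Sites with Hoxa13 later, 96.5% of those with E11.0, were 99.4% at high −log10 q, 99.6% on chromosomes 1 to 19, 100% without all dense windows, 99.6% without those of E11.0 and 99.6% without the X windows. With a replicate left out they were 93.8% to 96.9%. The cause of these shifts was not tested, apart from the rules' own construction. Leaving out the 4 X windows, or windows dense in E11.0 alone, was added after the data were seen. No paired analysis was possible because only Hoxa11 has replicates.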
